A study of Mus musculus with 24 samples.

Results

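The amygdala was compared between mice that freeze much and mice that freeze little, with 12 of the 24 arrays of the series: 6 of animals described as high freezing (titles numbered 7 to 12) and 6 of animals described as low freezing (1 to 6). The arrays were chosen by their labels alone, and each measured total RNA with 1 colour on an Affymetrix mouse expression platform, in which a probe set reads 1 transcript or several related ones. All the mice come from a selection for contextual fear conditioning that began with C57BL/6J crossed to A/J, and freezing is the immobility a mouse shows when it is put back where it was shocked. For these groups the labels give no treatment, age, sex, generation or time of dissection, and do not say whether an array holds 1 animal or a pool, so p-values here measure the spread between arrays. The remaining 12 arrays, 6 high and 6 low freezing, are of hippocampus and serve only for comparison.

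The amygdala links a place or a cue to an aversive event. Its basolateral and cortical nuclei hold glutamatergic neurons related to those of cortex, while its central nucleus holds inhibitory neurons related to those of the striatum and sends the output that drives freezing. It lies between striatum, cortex, hippocampus and hypothalamus, near the thalamus and the choroid plexus of the lateral ventricle, so a dissected block can hold RNA of its neighbours. In bulk RNA, fewer cells of a type and less RNA per cell cannot be told apart.

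The quality measures of the 12 arrays overlapped between groups, though the middle of some differed. Median intensity ran from 39.5 to 43 units in low and from 41.3 to 43.4 in high freezing, the 3' to 5' ratio of the Gapdh control probe sets from 0.795 to 0.896 and from 0.764 to 0.895, and that of actin from 1.8 to 2.1 and from 1.71 to 1.97. The group medians, low then high freezing, were 40.6 and 42.7 units, 0.89 and 0.825 for Gapdh, and 1.87 and 1.86 for actin. Correlations between arrays across probe sets were 0.968 to 0.982 within a group and 0.970 to 0.980 between groups. Eif2s3y, a gene of the Y chromosome, lay between 249.6 and 367.9 units on its brightest probe set on all 12 arrays, and Xist, the RNA that silences an X chromosome in females, reached at most 30.1. The RNA carried the marks of the labelled tissue and of its surroundings. Penk, the enkephalin precursor gene of central amygdala and striatum, ranged from 1640.7 to 4894.1 units, Gad1, an enzyme of GABA synthesis, averaged 5153.3 in high and 5269.6 in low freezing, and Ttr, the transthyretin gene of choroid plexus, ranged from 12545.7 to 18279.3. Among markers of the basolateral amygdala, Rspo2 and Grp were dim, spanning 28 to 135.9 and 23.5 to 115.8 units. The summed intensity of the 7 basolateral genes measured ran from 808.4 to 1915 in high and from 821.7 to 1693.3 in low freezing. Slc17a7, which loads glutamate into the synaptic vesicles of cortical neurons, spanned 66.8 to 210.7, against means of 699 in high and 665.9 in low freezing hippocampus.

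Arrays of 1 group differed from each other most clearly in markers of the thalamus, which lies near the amygdala. The thalamic list has 7 genes, of which 6 were measured, and its mean level on the log2(intensity + 16) scale spanned 6.65 on high 7 to 8.86 on high 12, with low freezing arrays between 7.37 and 8.37. Slc17a6, the glutamate transporter of thalamic and hypothalamic neurons, had a lowest, median and highest intensity of 406.1, 555.9 and 919.4 units in low and of 218.8, 475.8 and 1190.5 in high freezing. Both ends of that range were high freezing arrays, 7 and 12. Tnnt1, a troponin gene of the list, ran from 68.5 on high 7 to 535.4 on high 12, with low freezing arrays from 165.8 to 408.6. Genes outside the list had the same arrays at their ends. Shox2, a transcription factor of thalamic neurons, ran from 47.9 on high 7 to 675.1 on high 12 and from 197 to 452.4 in low freezing. Prkcd, a protein kinase C gene of both thalamus and central amygdala and counted here with the latter, ran from 319.1 to 2284.5 across the same arrays and from 771.3 to 1543.9 in low freezing. Ntng1, which encodes a membrane-anchored guidance protein, ran from 189.9 on high 7 to 1139 on high 12. In each of these 5 genes high freezing enclosed the low freezing range. The summed intensity of the list spanned 589.9 to 3377 in high and 1218.3 to 2434.7 in low freezing.

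**Figure D1:**
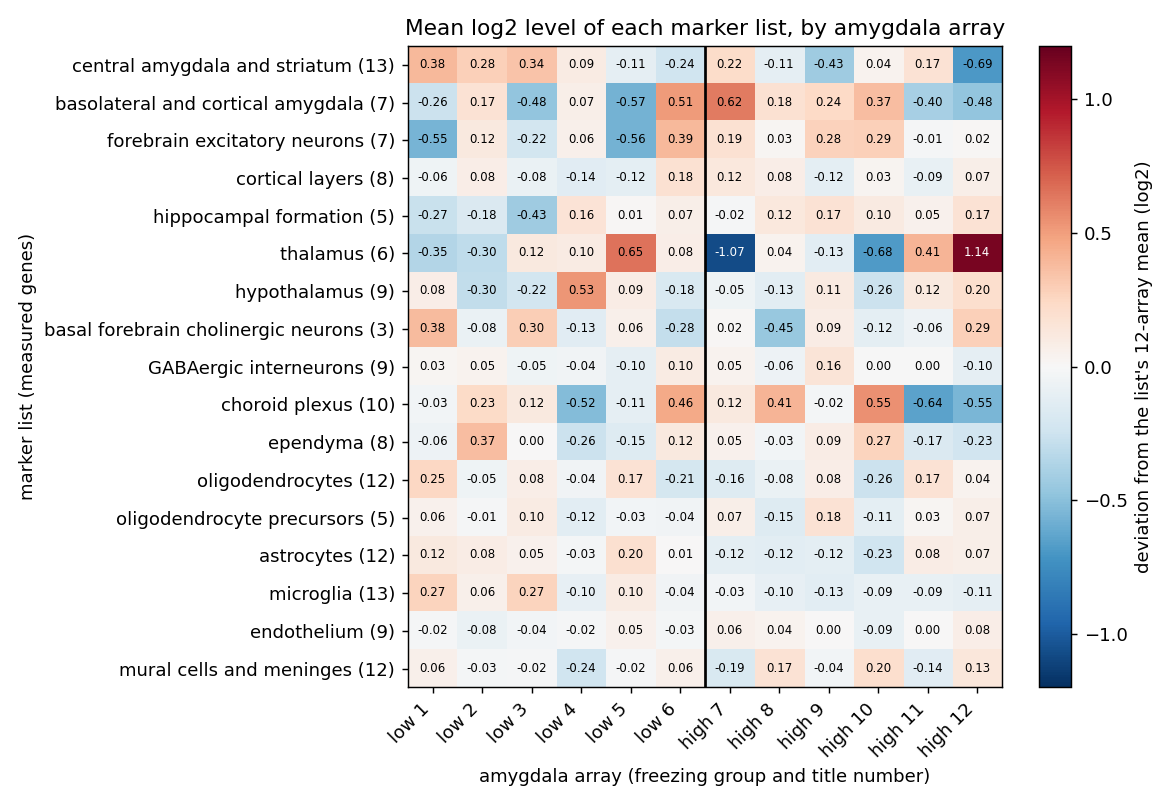
Mean level of each marker list (rows, with the number of measured genes) on each of the 12 amygdala arrays (columns, low freezing left of the line), as the deviation from the 12-array mean of the list in log2 units. The thalamic row spans the widest range, lowest on high 7 and highest on high 12, and the striatal row is lowest on high 12.

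Markers of nuclei of the amygdala itself and of other neighbours varied too. The list of central amygdala and striatum markers had its highest levels on low 1, low 2 and low 3 (9.92, 9.82 and 9.88) and its lowest on high 12 (8.85), where Drd1, a dopamine receptor gene of striatal projection neurons, stood at 203.6 units against 417.1 or more elsewhere. The basolateral list was highest on high 7 (7.88) and low 6 (7.77) and lowest on low 5 (6.69), low 3 and high 12 (6.78 each). The choroid plexus list was lowest on high 11 (8.36), high 12 (8.45) and low 4 (8.48) and highest on high 10 (9.55). Avp, the vasopressin gene of hypothalamic neurons, stood at 990.4 units on low 4 and between 115.1 and 207.4 on the other 11 arrays. Pmch, the melanin-concentrating hormone gene of the lateral hypothalamus, ran from 59.7 to 524.5 units in 12 arrays, both groups overlapping. No single array was at the same end for all these lists.

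The first principal component of the 12 arrays, with 15.5% of the variance, ordered the arrays by thalamic genes rather than by freezing group. High 12 (score -30.9), high 11 (-20.4) and low 5 (-14.0) lay at 1 end and high 7 (19.7) and low 2 (19.2) at the other. Its largest loadings on the side of high 12 belonged to Shox2, Tnnt1, Pmch, Gm19439, Prkcd, Synpo2, Ntng1, Slc17a6, Slitrk6 and Ramp3. On the other side they belonged to Prune2, Sgsm3, Mir1931, Crabp1, Grm2, Ipcef1, Egr2, Ankrd63, Smim27 and Ecrg4. Of the 6 thalamic genes 0 loaded on that other side, against 7 of 7 basolateral, 9 of 10 choroid plexus and 11 of 13 striatal genes. The second component, with 13.5%, ran from -27.1 to 2.33 in low and from 0.798 to 24.7 in high freezing, so that the groups overlapped only through low 6 and high 12. Its loadings on the high freezing side were led by Tmem87a, Rpgrip1, Mid1 and C1ql3, a synaptic gene of excitatory neurons, followed by the basolateral genes Rspo2 and Grp, and by Vmn2r29, Nxph3, Fibcd1 and Neurod6. On the low freezing side stood Hspa1b, Ctsc, Gfap, Mir1931, Commd9, Pmch, Lyz1, Shox2, Rgs16 and 5730409E04Rik. Regional lists were divided along this component too. On its high freezing side loaded 7 of 7 excitatory neuron, 7 of 7 basolateral and 9 of 10 choroid plexus genes, against 1 of 6 thalamic and 0 of 13 striatal genes. Whether the second component follows freezing or tissue composition was not tested.

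**Figure D2:**
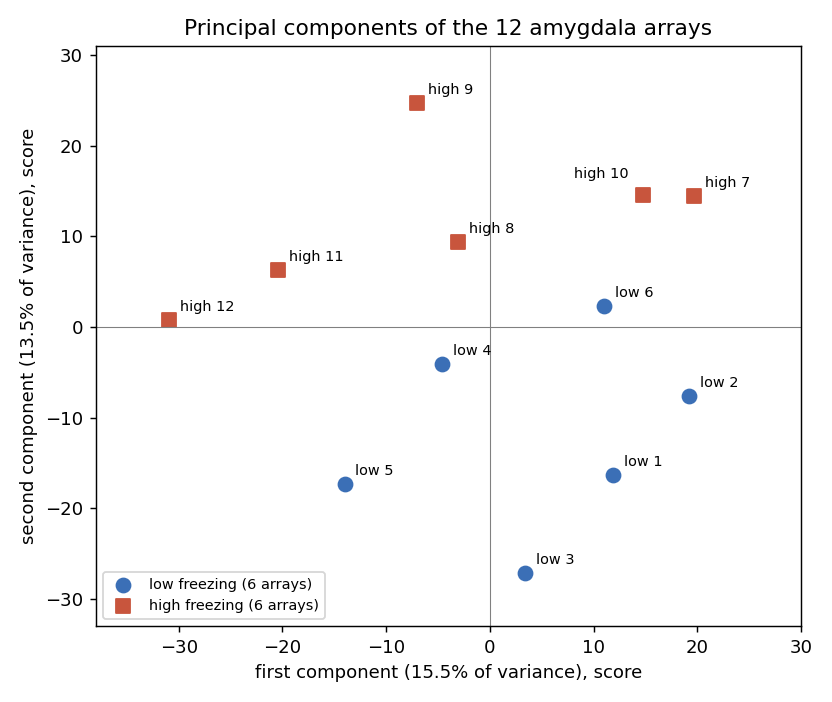
Scores of the 12 amygdala arrays on the first principal component (horizontal, 15.5% of the variance) and the second (vertical, 13.5%), low freezing as circles and high freezing as squares. The groups mix along the first axis, and along the second high freezing lies above low freezing but for low 6 (2.33) against high 12 (0.798).

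The spread between arrays of a group was wider here than in the hippocampus for markers of thalamus, striatum and excitatory neurons, but not for markers of every tissue. The pooled SD within groups of the 6 thalamic genes had a median of 0.639 on the log2 scale, against 0.293 for the same genes in hippocampal arrays, and it was larger in the amygdala for 6 of 6. For the 13 striatal and central amygdala genes the medians were 0.43 and 0.229 (larger in the amygdala for 12), for the 7 excitatory neuron genes 0.468 and 0.194 (7 of 7), and for the 7 basolateral genes 0.484 and 0.189 (7 of 7). Choroid plexus genes went the other way, with 0.48 against 0.571 and 3 of 10 larger in the amygdala. So did genes of mural cells and meninges (0.241 and 0.324, 2 of 12), ependyma (0.285 and 0.314, 2 of 8), hypothalamus (0.277 and 0.333, 4 of 9) and cholinergic neurons (0.267 and 0.41, 1 of 3). Genes of oligodendrocytes (0.21 and 0.224, 5 of 12) and their precursors (0.162 and 0.189, 2 of 5) also had the smaller median in the amygdala. Over all 12568 genes the medians were 0.178 and 0.165, with 6934 larger in the amygdala. For Prkcd the SD was 6.47 times that in hippocampus. The same gene can lie at different levels in both regions, as Slc17a7 did, and the spreads were not matched for level. These are descriptions, and the difference in spread was not tested.

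**Figure D3:**
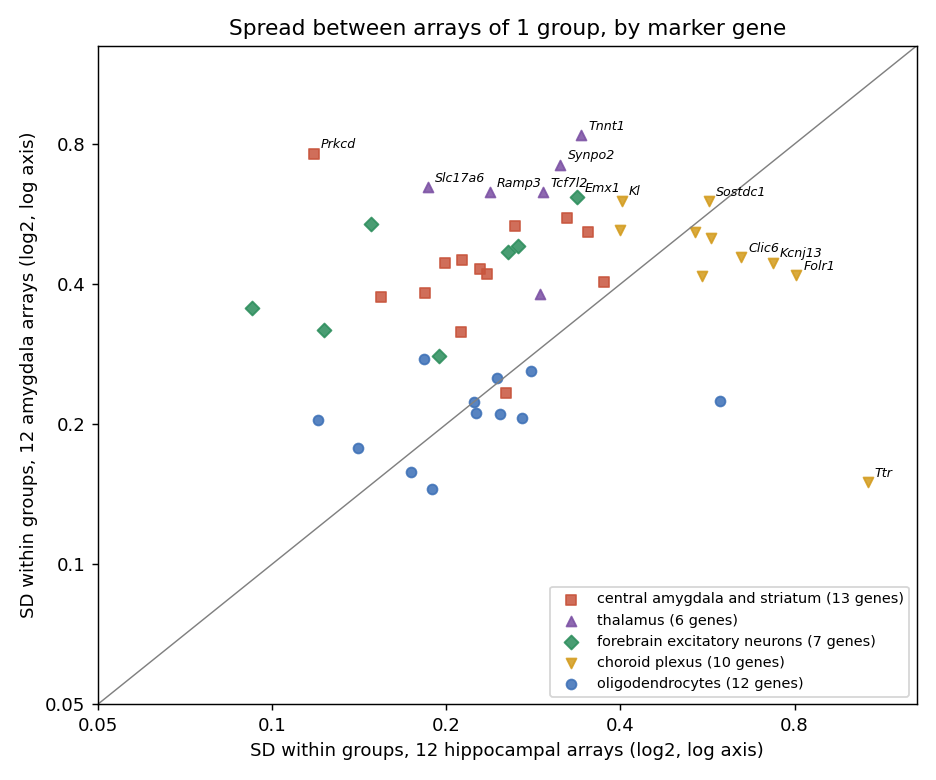
Pooled SD within freezing groups of marker genes in the 12 amygdala arrays (vertical) against the 12 hippocampal arrays (horizontal), on log axes in log2 units, each point 1 gene and the line marking equal spread. Thalamic, excitatory and most striatal genes lie above the line, Prkcd and Tnnt1 highest, while Ttr lies far below it.

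Of the 15 genes with the widest spread of all, the first were not region markers. Prune2, whose product binds small GTPase regulators, stood at 18.3 to 22.8 units on low 4, high 9 and high 12 and at 155.8 to 1110.5 on the other 9 arrays, an SD within groups of 1.79 on the log2 scale. Mid1, an X-linked ubiquitin ligase gene, had a lowest, median and highest value of 22.4, 59.1 and 200 units in low and of 17.6, 384 and 724.9 in high freezing. Tmem87a, a Golgi membrane protein gene, spanned 2.43 to 245.4 in low and 88.5 to 465.2 in high freezing, with a log2 difference of 1.67 (limma adjusted p = 0.358), and its log2 difference in the hippocampus was 2.40. Cap1, which encodes an actin-binding protein, spanned 76.4 to 978.4 and 133.8 to 1078.2, with the groups on top of each other. The next widest were Pmch, Mir1931, Gm19439, Shox2, Pi4kb, Zap70, Grm2, Sgsm3, Tnni1, G530011O06Rik and Tnnt1. Among these, Pmch and Tnnt1 belong to the hypothalamic and the thalamic list, and Shox2 is the thalamic gene described above.

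Against this spread, no probe set passed in the comparison of high with low freezing. In limma on the 12 arrays 0 of 27022 probe sets (0%) had an adjusted p under 0.05, the smallest being 0.111, while 2559 (9.47%) had an unadjusted p under 0.05, 1512 of them higher and 1047 lower in high freezing. That balance turned with the scaling: 59.1% of such probe sets were higher as deposited, 52.5% after quantile normalization, and 31.3% (883 higher, 1936 lower) with arrays centred on their median, which moved the median difference of all probe sets from 0.010 to -0.033. Taken at 1 probe set per gene, 533 of 12568 genes (4.24%) were higher and 533 (4.24%) lower at an unadjusted p under 0.05. In 24 genes (0.191%) every high freezing array lay above every low freezing array, and in 38 (0.302%) below. The values that follow are those of the genes with the smallest p in each direction, and since p chose them they describe and test nothing further.

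On the higher side Rpgrip1 came first. It encodes a scaffold of the photoreceptor cilium. Its lowest, median and highest intensity was 260.3, 351 and 663.3 units in low freezing and 574.2, 990.5 and 1308.7 in high freezing. Only low 2 reached into the high freezing range. The means were 980.8 ± 278.9 in high and 384.1 ± 146.6 in low freezing (SD, n = 6 each), a log2 difference of 1.33 with a standard error of 0.206 (limma adjusted p = 0.111, exact permutation p = 0.00433). Ttc34, a tetratricopeptide repeat gene, lay at 22.4, 26.1 and 36.3 in low and at 42.8, 59.6 and 81.4 in high freezing, with no overlap and a log2 difference of 0.84 ± 0.141 (SE). Differences of dim genes depend on the offset of 16 added before the log: with an offset of 64 that of Ttc34 was 0.46, of Prcp 0.50, of B4galt7 0.32, of Slc7a11 0.29 and of Nfil3 -0.37.

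Trim23, a ubiquitin ligase gene, had 235.3, 312.7 and 356.6 units in low and 421.5, 432.4 and 538.4 in high freezing. Cuedc1, which encodes a protein with a ubiquitin-binding CUE domain, had 81.4, 135.6 and 154.9 against 194.7, 212.9 and 251.4. Prcp, a carboxypeptidase of the lysosome, had 22.6, 28.7 and 50.1 against 54.4, 70.7 and 115.6. In all 3 the groups did not overlap, and the log2 differences were 0.56, 0.72 and 0.87 with limma adjusted p of 0.111, 0.111 and 0.128; the exact permutation p of each was 0.00216, the smallest that 6 arrays against 6 allow. The groups also lay apart for B4galt7, an enzyme that builds the linker of proteoglycans, for Slc7a11, the cystine and glutamate exchanger, and for Slc16a1, a lactate transporter, with log2 differences of 0.57, 0.52 and 0.28. They overlapped for Gm26782 (0.84) and Pgbd5 (0.38), a gene derived from a transposase. For Cuedc1 only 1 of its 2 other probe sets had the same sign.

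On the lower side Ctsc, the gene of cathepsin C, which activates proteases of immune cells, came first. Its lowest, median and highest intensity was 358.9, 634.4 and 823.9 units in low freezing and 163, 270.4 and 388.7 in high freezing. Low 4 alone fell into the range of the other group, just below high 7. The means were 274.2 ± 83.1 in high and 635.8 ± 166.1 in low freezing (SD, n = 6 each), a log2 difference of -1.17 with a standard error of 0.195 (limma adjusted p = 0.111, exact permutation p = 0.00433). Fah, an enzyme of tyrosine breakdown, had 393.1, 448.5 and 477.1 units in low and 253.7, 303.7 and 393.9 in high freezing, where high 12 alone overlapped. Supt16, a subunit of the histone chaperone FACT, had 418.5, 521.2 and 583 against 270.5, 356.9 and 411.4, without overlap. Their log2 differences were -0.49 and -0.58.

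Nfil3, a transcriptional repressor, stood at a mean of 45.1 ± 4.16 units in high and 77.6 ± 16.2 in low freezing (SD, n = 6 each), Thrsp, a regulator of fat synthesis, at 201.9 ± 13.1 and 264 ± 20.4, and Fuom, an enzyme that interconverts forms of fucose, at 275.3 ± 17.5 and 353.3 ± 28.3. Nhsl2 stood at 417.4 ± 56.6 and 552.7 ± 46.1. The groups lay apart in all 4. Sox10, a transcription factor of the oligodendrocyte lineage, overlapped, with 474.6 ± 46.4 and 623.2 ± 65.2. Limma gave these 5 genes an adjusted p between 0.128 and 0.167. The chaperone genes Hspa5 and Manf complete the 10 and are described below with their list. Of the 20 genes, 5 are on chromosome 7 (Prcp, Ctsc, Fah, Thrsp and Fuom) and 3 on chromosome 14 (Rpgrip1, Gm26782 and Supt16). Among the 100 genes with the smallest p, 15 were on chromosome 7, which carries 7.41% of the genes tested, and 6 on chromosome 14, which carries 3.56%.

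**Figure D4:**
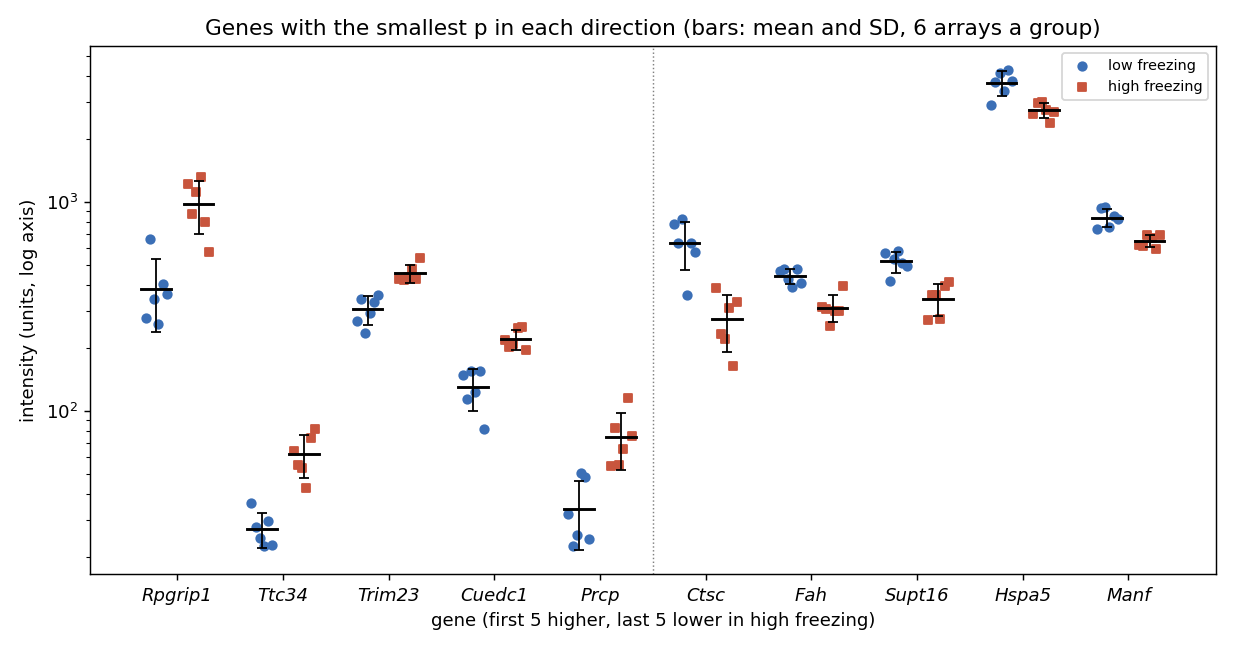
Intensity on each amygdala array (log axis) of 5 genes with small p on the higher side and 5 on the lower side, low freezing as circles and high freezing as squares, with mean and SD of the 6 arrays a group as black bars. Ttc34, Trim23, Cuedc1, Prcp, Supt16 and Manf show no overlap between groups, while low 2 of Rpgrip1, low 4 of Ctsc and high 12 of Fah reach into the other group.

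The hippocampal arrays gave a second tissue for these 20 genes, though the labels do not say whether the same animals were used. Of the 10 on the higher side, 10 were also higher in high freezing hippocampus and 7 had an unadjusted limma p under 0.05 there. Among all 6055 genes higher in the high freezing amygdala 59.9% shared the sign and 571 (9.43%) did so at that p. Of the 10 on the lower side, 9 were also lower and 7 had such a p. Among all 6304 genes lower in the amygdala 59.4% shared the sign and 564 (8.95%) did so at that p. Rpgrip1 differed by 1.33 in the amygdala and by 1.37 in the hippocampus. Slc7a11 differed by 0.52 and 0.79, and Gm26782 by 0.84 and 0.70. Ctsc differed by -1.17 and -0.55, Ttc34 by 0.84 and 0.24, Sox10 by -0.38 and 0.02, and Fuom by -0.34 and -0.03. In the test of the difference between both regions' freezing differences no probe set passed in limma (0 of 27022, smallest adjusted p = 0.715, 1640 at an unadjusted p under 0.05), and Ctsc, Ttc34, Sox10 and Fuom had an adjusted p of 0.774 each.

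The count differed when the hippocampal arrays entered the fit, which sets the filter on dim probe sets and the spread from both regions and has 20 residual degrees of freedom in place of 10. Fitted on all 24 arrays, limma called 15 of 27022 probe sets (0.0555%) for the amygdala, 10 higher and 5 lower. Ctsc, Ttc34, Trim23, Cuedc1, Prcp, Fah and Thrsp were among them at their brightest probe set. Dclk1, a kinase of microtubules, Gmfb, a glial maturation factor, Mtmr6, a lipid phosphatase, Sirpa, a receptor of the signal that stops phagocytosis, and Son, a splicing protein, were called at a dimmer probe set, as was Calr, together with 2 probe sets that have no symbol here. The dimmer Calr probe set spanned 1156.4 to 1444.4 units in low and 671.9 to 1053.4 in high freezing, and the brightest had a log2 difference of -0.25 (adjusted p = 0.265 on 24 arrays). For Dclk1 the called probe set spanned 97.3 to 173.6 and 177.4 to 260.2, and 4 of 8 others had its sign. Rpgrip1, with the smallest p on 12 arrays, had an adjusted p of 0.217 on 24.

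Terms for tissue composition also moved the count. With each array's first component score as a covariate limma called 29 of 27022 (0.107%), 10 higher and 19 lower. Among these were genes known from thalamic neurons, Prkcd, Slc17a6, Tnnt1, Shox2, Ntng1, Rora, Plcb4 and Zic1, none of which had an adjusted p under 0.455 in limma without the covariate. The component was built from the same values and is led by several of them, so their calls follow in part from how the covariate was made. Only 4 of the 29 calls were also among the 15 on 24 arrays. With the mean thalamic marker level as the covariate 1 probe set passed (0.00370%), Rpgrip1, with a log2 difference of 1.29 (adjusted p = 0.0137). Ctsc then had a difference of -1.19 (adjusted p = 0.0524). Leaving out both high 7 and high 12 gave 5 calls, Rpgrip1, Ctsc, Fah, Map2 and Norad. Leaving out high 12 alone gave 2, Rpgrip1 and Fah. The mean microglial marker level itself differed by group, at 8.12 in high and 8.3 in low freezing, so as a covariate it overlaps with the freezing term. With it as the covariate no probe set passed in limma and 1203 had an unadjusted p under 0.05. The difference of Ctsc was then -0.67, of Trim23 0.37 and of Sox10 -0.24; the part of these markers in the differences was not tested further.

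Genes of glutamatergic and of striatal neurons leaned in opposite directions, without any member passing. All 7 measured forebrain excitatory neuron genes had a log2 difference above 0, with a median of 0.296, against 49.1% above 0 and a median of -0.00243 over all genes tested. Neurod6, a transcription factor of these neurons, had a lowest, median and highest value of 37.3, 117.5 and 170.3 units in low and of 115.2, 168.8 and 205.5 in high freezing, a log2 difference of 0.60 and the 1 member with an unadjusted p under 0.05. Slc17a7 differed by 0.33 and the cortical transcription factors Tbr1 and Emx1 by 0.10 and 0.01. Without low 1 the median of the list was 0.184. The basolateral list also had 7 of 7 above 0, with a median of 0.0772 that was -0.0371 without high 7, -0.00985 without low 5 and as high as 0.209 when another array was left out. Its members Rspo2 and Grp differed by 0.51 and 0.42.

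Of 13 central amygdala and striatum genes 0 were above 0, with a median of -0.259. Isl1, a transcription factor of striatal neurons, spanned 171.9 to 414.4 units in low and 188.8 to 283.5 in high freezing (log2 difference -0.38, limma adjusted p = 0.437). Penk, Drd1 and Drd2 differed by -0.26, -0.34 and -0.30, all with groups that overlapped. The striatal level also varied within low freezing, from 9.30 on low 6 to 9.92 on low 1, and the median of the list was -0.0956 without high 12 and -0.172 without high 9. With the microglial covariate the median of the striatal list was 0.0744, with 8 of 13 above 0. That of the excitatory list was -0.0661, with 2 of 7 above 0, so neither lean kept its sign in that fit. The microglial level itself differed by group (mean 8.12 in high and 8.3 in low freezing), so the fit cannot decide whether either lean holds. The thalamic list had 1 of 6 above 0 and a median of -0.217, which was -0.461 without high 12 and 0.0193 without high 7. Lef1, a transcription factor of thalamic neurons, was the 1 above 0, by 0.42. The other regional lists were those of choroid plexus (4 of 10 above 0, median -0.0145), interneurons (4 of 9, -0.0328), hypothalamus (6 of 9, 0.0901) and cortical layers (4 of 8, -0.0267). Ependymal genes had 4 of 8 above 0 (0.00401), basal forebrain cholinergic genes 1 of 3 (-0.0965) and genes of mural cells and meninges 5 of 12 (-0.0237). Each of these 7 medians moved by over 1.5 times when some single array was left out, as the basolateral, excitatory and striatal ones did, and no direction is read from them. Of 5 genes of the hippocampal formation 4 were above 0, with a median of 0.12, led by Fibcd1 (0.57) and C1ql2 (0.36); the median was 0.0768 without high 10, 0.193 without high 7, 0.195 without high 12 and 0.00487 with the microglial covariate. The 1 measured blood cell gene, Alas2 of haem synthesis, differed by -0.36.

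Most microglial and astrocyte genes stood on the lower side. Both lists were chosen with earlier results of these data known, so their contrast with all genes is a description and not a test. Of 13 microglial genes 11 were below 0, with a median of -0.212, and 5 had an unadjusted p under 0.05 on the lower side, where all genes had 4.24%. C1qc and C1qb, which encode chains of complement C1q, led them. C1qc had a lowest, median and highest value of 232.2, 281.6 and 428.5 units in low and of 162.2, 201.3 and 232.6 in high freezing, meeting at low 2 and high 11, with a log2 difference of -0.54 (limma adjusted p = 0.203). C1qb differed by -0.38, Tyrobp and C1qa by -0.25 and -0.22, and Laptm5 by -0.21. The homeostatic markers P2ry12 and Aif1 differed by 0.01 and 0.04, and Cx3cr1 by -0.13. The mean level of the list was highest on low 1 and low 3 (8.48 each), 8.11 to 8.31 on the remaining low freezing arrays, and 8.08 to 8.18 in high freezing. The summed intensity ran from 5481.8 to 7616.7 in low and from 5410.3 to 6013.8 in high freezing.

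Astrocyte genes had 9 of 12 members below 0 and a median of -0.107. On the lower side 4 had an unadjusted p under 0.05, against 4.24% of all genes. Gfap, the intermediate filament of astrocytes, had 626.8, 810.3 and 1076.9 units in low and 253.2, 401.5 and 801.4 in high freezing, where high 11 and high 12 lay inside the low freezing range. Its log2 difference was -0.90 in the amygdala (limma adjusted p = 0.197) and -0.84 in the hippocampus. The other 3 were Slc1a3, a glutamate transporter, Aqp4, a water channel, and Aldh1l1, a folate enzyme, at -0.20, -0.16 and -0.17. Gja1, the main gap junction gene of astrocytes, differed by 0.05 and Sox9 by -0.03. Of 12 oligodendrocyte genes 9 were below 0, with a median of -0.046, led by Ermn, a myelin gene, at -0.39, while Mbp and Cnp stood at 0. That median was 0.0034 without high 10, -0.0979 without high 9 and 0.0731, with 9 of 12 above 0, with the microglial covariate, so it has no settled sign. Precursor genes of that lineage had 2 of 5 above 0 (median -0.00585). Without high 10 the astrocyte median was -0.0615. Among 9 endothelial genes 5 were above 0. Adgrl4, an adhesion receptor of vessels, stood at 129.2 ± 15.8 units in high and 94.8 ± 13.1 in low freezing (SD, n = 6 each) without overlap, a log2 difference of 0.39 (limma adjusted p = 0.275) with 0.57 in the hippocampus.

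Cytosolic heat shock genes all stood on the lower side, and chaperones of the endoplasmic reticulum were divided. Heat shock chaperones of the cytosol keep proteins folded and are induced by heat and other protein stress through heat shock factor 1, which binds repeats of an element whose inverted pair reads GAANNTTC. Chaperones of the endoplasmic reticulum are induced when unfolded proteins build up there, through an element that reads CCAAT, then 9 bases, then CCACG. Of the 16 measured cytosolic genes 0 were above 0, with a median log2 difference of -0.219, and 8 had an unadjusted p under 0.05. Over all genes 49.1% were above 0, and 4.24% had such a p on the lower side and 4.24% on the higher. Since the lists were chosen with earlier results of these data known, this contrast describes and tests nothing. Of 12 genes of the endoplasmic reticulum 8 were below 0, with a median of -0.117 (-0.0591 without low 5, -0.0709 without low 2 and -0.183 without low 1), 5 with such a p on the lower side and 1, Pdia4, on the higher. None passed the adjusted threshold in limma on 12 arrays. The median of the cytosolic list was -0.0467 in the hippocampus and that of the endoplasmic reticulum list -0.121.

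Promoters that hold the letters of the element are shown for Hspa1b and Hspa5, which lie furthest below 0 in their lists. They are also shown for Hspb1, whose window holds the letters at 2 places, and for Pdia6, whose groups do not overlap. They were taken from RefSeq sequences of GRCm38.p6: the 250 bases before the start of the gene, on the strand of the gene, with the element in capitals.
Hspa1b (chr17:34959239-34959488, minus strand): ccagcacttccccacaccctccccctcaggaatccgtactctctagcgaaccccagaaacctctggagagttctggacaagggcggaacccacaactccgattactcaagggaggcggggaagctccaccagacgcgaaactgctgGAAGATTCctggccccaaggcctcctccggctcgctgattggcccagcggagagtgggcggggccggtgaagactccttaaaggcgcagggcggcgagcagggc
Hspb1 (chr5:135887669-135887918, plus strand): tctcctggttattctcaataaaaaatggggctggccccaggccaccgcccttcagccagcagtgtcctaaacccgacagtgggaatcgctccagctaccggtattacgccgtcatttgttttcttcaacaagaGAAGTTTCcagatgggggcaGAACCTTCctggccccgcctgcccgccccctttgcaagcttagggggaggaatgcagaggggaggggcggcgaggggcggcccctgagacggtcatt
Hspa5 (chr2:34771840-34772089, plus strand): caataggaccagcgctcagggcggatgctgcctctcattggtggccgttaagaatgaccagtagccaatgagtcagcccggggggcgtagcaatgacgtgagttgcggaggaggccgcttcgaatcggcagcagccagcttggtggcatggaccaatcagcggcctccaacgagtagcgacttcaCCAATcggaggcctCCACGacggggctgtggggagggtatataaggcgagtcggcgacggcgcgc
Pdia6 (chr12:17266339-17266588, plus strand): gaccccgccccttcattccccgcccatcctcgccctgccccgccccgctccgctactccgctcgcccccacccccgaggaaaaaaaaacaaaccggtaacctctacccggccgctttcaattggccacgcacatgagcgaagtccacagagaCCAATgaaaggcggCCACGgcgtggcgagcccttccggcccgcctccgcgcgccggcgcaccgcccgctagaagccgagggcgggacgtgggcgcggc

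The letters GAANNTTC, which read the same on both strands, were found in at least 1 window of 6 of the 13 cytosolic genes that have a promoter in the table (Hspa1a, Hspa1b, Hspb1, Dnaja1, Hspe1 and Hspd1) and in 6.69% of all 32851 promoters. The 6.69% counts single promoters, while a cytosolic gene with several windows counts once if any matches, so these shares are not on the same footing. The matched windows of Hspe1 and Hspd1, which are read in opposite directions, overlap and hold the same match. Those of Hspa1a and Hspa1b are nearly identical, so the 6 genes are not independent. CCAAT and CCACG 9 bases apart, searched on both strands, were found in 6 of 10 genes of the endoplasmic reticulum (Hspa5, Calr, Canx, Pdia6, Hsp90b1 and Creld2) and in 0.113% of all promoters. A match describes these letters only. The matched genes did not all lie at the low end: Dnaja1, Hspd1, Canx and Hsp90b1 differed by -0.04, -0.09, 0.02 and -0.01.

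Hspa1b, the stress-inducible HSP70 gene, had the widest difference. Its lowest, median and highest intensity was 150.1, 316.5 and 958.7 units in low freezing and 77.6, 132.4 and 259.7 in high freezing. Low 2 (958.7) and low 3 (765.3) stood far above the rest, while low 4 and low 6 lay inside the high freezing range. The log2 difference was -1.32 with a standard error of 0.366 (limma adjusted p = 0.29, exact permutation p = 0.0152). Hspa1a, a nearly identical copy, stood at 88.9 ± 24.3 in high and 156.8 ± 56 in low freezing (SD, n = 6 each), and since probes for one copy can read the other, both values are uncertain as single genes. In the hippocampus the differences of Hspa1b and Hspa1a were 0.18 and 0.29. The constitutive Hspa8 and Hsp90aa1 differed by -0.13 and -0.01 in the amygdala.

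Smaller but tighter differences stood in the partners of these chaperones. Chordc1, a partner of HSP90, had 611.9, 697 and 808.2 units in low and 528.7, 573.1 and 596.5 in high freezing, with no overlap (log2 difference -0.30, limma adjusted p = 0.242). Hsph1, an exchange factor of HSP70, stood at 1831.6 ± 117.3 and 2186.6 ± 174.4 in high and low freezing, overlapping only at high 8 (1962.8) and low 1 (1960.4). Hspb1, Dnajb1 and Cryab, small heat shock proteins and a co-chaperone, differed by -0.36, -0.37 and -0.26, and Hspa4l by -0.18. With the microglial covariate the median of the list was -0.108.

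Hspa5, the main HSP70 of the endoplasmic reticulum, had 2906.7, 3770.1 and 4277.4 units in low and 2396.3, 2719 and 3014 in high freezing, overlapping only through low 1. The log2 difference was -0.43 with a standard error of 0.0846 (limma adjusted p = 0.128). Of its 2 other probe sets 1 had the same sign. Manf, a secreted protein of this stress response, had 739.6, 839.5 and 939.8 against 596.5, 646.1 and 697.3, without overlap and with a log2 difference of -0.36 (limma adjusted p = 0.128). Pdia6, a disulfide isomerase, also lay apart, at 532.1 ± 32.6 in high and 644.7 ± 44.8 in low freezing (SD, n = 6 each), -0.27. Creld2 and Calr, a calcium-binding chaperone, differed by -0.31 and -0.25. Pdia4, another isomerase, stood on the other side, 167.5 ± 26.5 in high and 122.9 ± 42.4 in low freezing, 0.44, and Canx and Hsp90b1 lay at 0.02 and -0.01.

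**Figure D5:**
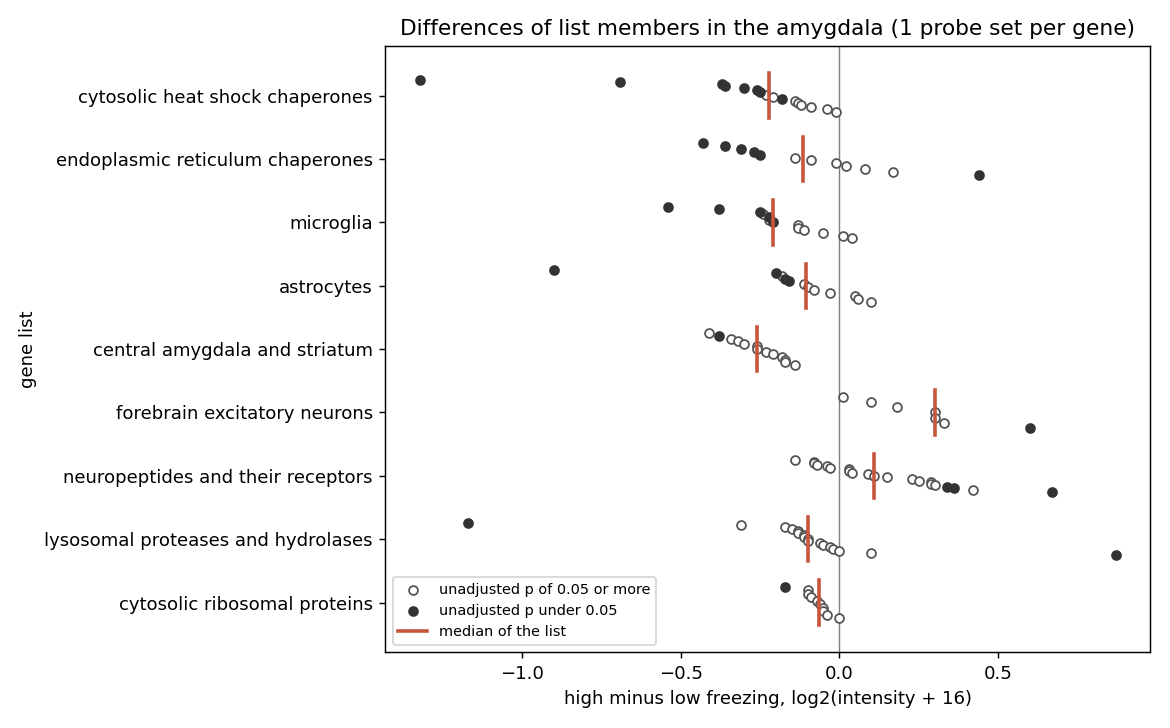
Log2 difference, high minus low freezing, of the members of 9 lists in the 12 amygdala arrays, 1 probe set per gene; filled points have an unadjusted limma p under 0.05 and the upright bar is the median of the list. The cytosolic heat shock list lies wholly below 0 with Hspa1b at -1.32, the excitatory neuron list wholly above 0, and in the lysosomal list Ctsc (-1.17) and Prcp (0.87) stand on opposite sides.

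Lysosomal genes other than Ctsc and Prcp mostly stood below 0, by small differences. Of 17 measured proteases and hydrolases 15 were below 0, with 11.8% above 0 against 49.1% of all genes. Their median was -0.101 (-0.0684 without low 2 and -0.126 without low 4). Lamp2, a membrane protein of lysosomes, differed by -0.31, while Ctsb, Ctsd and Lgmn, further proteases of the lysosome, stood at -0.02, -0.06 and 0. With the microglial covariate the median was 0.00634. Cytosolic ribosomal protein genes had 9 of 10 below 0 and a median of -0.069, which was -0.0274 after quantile normalization. Rplp0, a protein of the ribosomal stalk, led with -0.17. Oxidative phosphorylation genes had 13 of 19 below 0, a median of -0.0405 and of 5.16e-05 after quantile normalization.

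Most peptide and receptor genes of fear circuits stood above 0, but their median moved with single arrays, and no direction is read from it. Of 21 neuropeptide and peptide receptor genes 15 were above 0, with a median of 0.107 (0.0423 without high 7, 0.164 without low 4 and 0.184 without high 11), and 3 had an unadjusted p under 0.05 on the higher side, against 49.1% above 0 and 4.24% with such a p over all genes. Cartpt, the precursor of the peptide CART, had 75, 106.9 and 192.8 units in low and 108.9, 179.4 and 364.2 in high freezing, a log2 difference of 0.67 (limma adjusted p = 0.365), and differed by -0.45 in the hippocampus. Tac2, the neurokinin B precursor, stood at 318 ± 17.5 in high and 253 ± 53.2 in low freezing (SD, n = 6 each), where low 1 alone (328.7) lay inside the high freezing range. Oprk1, the kappa opioid receptor, differed by 0.36. Crh, the corticotropin-releasing hormone gene, and its receptor Crhr1 differed by -0.03 and -0.08, and Sst, Npy and Oxtr by 0.03, -0.14 and 0.03. The median of the list was 0.0542 with the microglial covariate, with 15 of 21 above 0.

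Receptors and kinases of synaptic plasticity stayed near 0 as lists. Of 13 ionotropic glutamate receptor genes 11 were above 0 with a median of 0.063 (0.0371 without low 4, 0.097 without high 11 and 0.112 without low 6). The AMPA receptor genes Gria1 and Gria2 differed by 0.11 and 0.01, Grin2b by 0.04 and Grin2d by 0.25. GABA-A receptor subunits had 5 of 9 above 0 (median 0.0155), with Gabra2 at 0.27 and Gabrd at -0.19. Among 13 plasticity kinases, phosphatases and neurotrophin genes (median -0.00888) Creb1, a transcription factor of lasting memory, stood at 539.4 ± 32.6 units in high and 621 ± 50.2 in low freezing (SD, n = 6 each), a log2 difference of -0.20 (limma adjusted p = 0.371). Bdnf, a neurotrophin, differed by 0.46 and spanned 28.9 to 98.8 and 54.8 to 107.5 units in low and high freezing; its other probe set had the opposite sign. Htr1b, a serotonin autoreceptor, differed by -0.40 among 8 monoamine genes of which 6 were above 0.

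Immediate early genes, which neurons switch on with activity, were divided. Of 17 measured 10 were below 0, with a median of -0.128 that was 0.0266 without high 12, -0.0465 without low 2 and -0.0806 without low 3. Btg2 and Jun differed by 0.34 each and Egr1 by -0.37, with a limma adjusted p of 0.366, 0.366 and 0.485. All 3 had an unadjusted p under 0.05, as did 4.24% of all genes on the higher and 4.24% on the lower side. Arc and Fos, which mark recently active neurons, differed by -0.39 and -0.25, with the highest values on low 2 (338.9 and 544.5 units) and the lowest on high 11 for Arc (104.8) and high 12 for Fos (199.1).

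Of 6 gene pairs examined across the 12 arrays none passed after adjustment. Ctsc and C1qc had a Pearson r of 0.65 and a Spearman rho of 0.64 (permutation p = 0.0207 and 0.0281, adjusted over the pairs 0.124 and 0.169), and r was 0.84 without the 2 arrays farthest from the median of Ctsc. Within the groups r was 0.15 in low (exact p = 0.881, n = 6) and -0.05 in high freezing (exact p = 0.992, n = 6). With 6 arrays a group, such an r is imprecise and cannot show whether the relation holds within groups. Both genes stood lower in high freezing, so the pooled r also carries the difference between groups. Ctsc and Drd1 had r = 0.32 and rho = 0.51 (permutation p = 0.338 and 0.092, adjusted 0.698 and 0.276). Drd1 with Slc17a7, Penk with Neurod6, Ttr with Pmch and Mog with Tcf7l2 had r of -0.21, -0.29, -0.08 and -0.08 and rho of -0.17, -0.34, -0.03 and 0.15, with permutation p for r of 0.529, 0.349, 0.814 and 0.818 and for rho of 0.602, 0.275, 0.94 and 0.635, none under 0.55 after adjustment. Without the 2 arrays farthest from the median of the first gene r was 0.35 for Ctsc with Drd1 and 0.11, -0.04, 0.09 and 0.19 for these 4.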

How the data were processed

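The authors' table holds 1 deposited intensity per probe set and array on a linear scale, with its software not given in the sources used here. With 2% trimmed at both ends, the deposited intensity of every array averages 150. Values were tested as log2(intensity + 16), with the 64 control probe sets and the dimmest 40% by mean over the 12 amygdala arrays left out, which kept 27022. Array medians spanned 0.0991 on that scale, under the limit of 0.2, so no normalization was added. Limma 3.58.1 in R 4.3.3 fitted 1 mean per group (10 residual degrees of freedom, intensity trend), two-sided, with Benjamini-Hochberg adjustment over 27022 probe sets. Values for the hippocampus and for the regional difference come from a fit of all 24 arrays. A gene is read at its brightest probe set with exactly 1 symbol in the platform annotation. The model was tested on simulated data. Arrays have no read depth, and 6 per group limits the precision.

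Genes named are the 10 with the smallest p in each direction, those called on 24 arrays, the 15 with the largest SD within groups, up to 4 members of each list (by SD for markers, by p otherwise) and the 10 largest loadings at each end of both components; others, such as list members that serve as a comparison, array extremes and genes called only with a covariate or without arrays, were chosen after their values were seen. The lists hold 349 genes in 29 lists, 314 of them matched to a probe set. The members and lists were chosen with earlier results of these data known. Single genes were also compared by exact permutation, and the alternatives are given at the end.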

Additional observations from a re-analysis of the deposited data

Results flagged for a closer look

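In 16 of 390 groups of 6 arrays examined, 1 array stood apart by Dixon's ratio, its gap to the nearest array over the whole range of the group, above the 95% critical value. Chance sets apart about 5% of groups, and the share found was under that. The cases are therefore only listed, and none is read as a result. Low 4 was lowest for the mean of the mural and meningeal list (0.712), for its member Col1a1 (0.712), for Cap1 (0.643) and for Nxph4 (0.752), and highest for Avp (0.792). Low 3 was lowest for Fibcd1 (0.665) and Nxph3 (0.711) and highest for Lyz1 (0.811). Low 5 was highest for Oprk1 (0.701) and lowest for Ankrd63 (0.643). In high freezing, high 10 was lowest for Zap70 (0.641) and Atp5b (0.693), high 12 for Rpl7 (0.635) and Egr2 (0.626), and high 7 for Hcrt (0.733), while high 9 was highest for Rps14 (0.789).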

How the results depend on the processing

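The count of calls in limma, 0 on the 12 arrays, was also 0 with an offset of 1 or 64, quantile normalization, median centring, the dimmest 60% left out, no trend, a robust prior, array weights, 1 probe set per gene, and the oligodendrocyte or microglia covariate. It was 15 with 24 arrays and 15 with the title number as a replicate block (consensus correlation 0.0257; high and low freezing share no number). It was 29 with the first component as covariate, 5 with the choroid plexus, 4 with the striatal, and 1 each with the excitatory, the hypothalamic and the thalamic marker covariate, and 1 without a filter. Without both high 7 and high 12 it was 5. Leaving out 1 array gave 0 to 2, with 2 without high 12 and 1 without low 2 (Rpgrip1) or low 4 (Ctsc). The thalamic covariate and the omission of both arrays were added after the data were seen. The cause of these shifts was not tested. The difference between the regions' freezing differences gave 0 calls under all 5 alternatives run, the block included. The first component held 12.8% to 18.8% of the variance under all settings. Probe sets near background limit what dim genes can show.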
